A study of Mus musculus with 18 samples.

Results

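The genes described here are the axon guidance ligands and receptors of the mouse: the semaphorins of classes 3 to 7 with their plexin and neuropilin receptors, the ephrins with the Eph receptors, the Slits with the Robo receptors, and the netrins with the Unc5 receptors and Dcc. They were chosen by symbol, and 68 genes of the deposited table matched. A gene was kept where it reached at least 1 CPM (a gene's reads relative to a fixed sum over all genes of the library) in at least 4 of 16 libraries, which left 63 genes, 32 of them ligands and 31 receptors, among 14214 genes tested of 22021 listed. The libraries came from dorsal root ganglia, which hold the cell bodies of sensory neurons, of Nav1.8-trap mice. These mice carry Nav1.8cre, in which the promoter of Scn10a (the sodium channel gene of Nav1.8) drives Cre, and Rosa26fsTRAP, from which Cre-expressing cells make the ribosomal protein L10a fused to EGFP. In all 4 groups both alleles were present, and the mice were male and female littermates of 8 to 12 weeks, with the Cre line on a C57BL/6J background. The groups were TRAP pulldown from paclitaxel-treated mice, input from the same mice, TRAP pulldown from normal mice and input from the same mice, with 4 biosamples each. Paclitaxel, a chemotherapy drug that causes painful neuropathy, was injected into the peritoneum at 4 mg/kg, 4 times over 8 days, to a cumulative 16 mg/kg. The labels call the other mice normal and do not say whether they were dosed with the vehicle, nor how many animals a biosample pools, so the p-values measure the spread between biosamples, which may be partly technical. In a TRAP assay, antibodies to EGFP pull down tagged ribosomes with the mRNA they are bound to, here from Nav1.8-expressing neurons, most of which are nociceptors. Input RNA was taken from the same extract before the pulldown, so each biosample gave a pulldown and an input, and both were sequenced from the 3′ ends of transcripts.

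Guidance ligands are read by receptors on the growing tip of an axon, which turns toward or away from them. Semaphorins signal through plexins, with neuropilins as co-receptors for the secreted class 3; ephrins signal through the Eph receptor tyrosine kinases on direct cell contact; Slits signal through Robo receptors; and netrins attract through Dcc and repel through Unc5 receptors. In adult ganglia and nerves many of these genes are still expressed, by sensory neurons and also by glia, vessels and connective tissue, and they are known for roles in nerve regrowth, vessel patterning and synapse adhesion.

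Depth over genes, estimated from the step between the lowest values, was 10576006 to 32710867 reads in paclitaxel pulldowns, 6398739 to 12371032 in paclitaxel inputs, 5972297 to 26824855 in normal pulldowns and 4265982 to 14477727 in normal inputs. A count of 3 reads, the limit that a count of 0 allows, was worth 0.0917 to 0.703 CPM, for counting error only. Pulldowns nevertheless held fewer genes at 1 CPM or more (8081 to 13228 in paclitaxel and 9715 to 12439 in normal mice) than inputs (13831 to 14043 in paclitaxel and 13152 to 13660 in normal mice). The paclitaxel biosample numbered 7 was deposited as 2 subsamples, averaged here. Between those subsamples 28 of the 63 guidance genes differed by more than 2 on the log2(CPM + 1) scale in the pulldown, and 0 did in the input. Scn10a, the driver gene, averaged 1405 ± 297 CPM in paclitaxel pulldowns and 562 ± 76.4 CPM in paclitaxel inputs, and 1002 ± 338 CPM in normal pulldowns and 666 ± 248 CPM in normal inputs (SD, n = 4 each). Rpl10a, the gene of the ribosomal protein that carries the tag, averaged 61.3 ± 42.0 CPM in paclitaxel pulldowns, 22.7 ± 7.03 CPM in paclitaxel inputs, 8.31 ± 5.32 CPM in normal pulldowns and 11.49 ± 7.61 CPM in normal inputs. It did not pass between pulldown and input in paclitaxel (1.25 ± 0.59, limma adjusted p = 0.112) or normal mice (-0.45 ± 0.59, 0.572), and its change between paclitaxel and normal pulldowns was 2.84 ± 0.68 (limma adjusted p = 0.051).

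Markers of cells without the tag and of neurons are given here once, beside the results they touch. Their counts are to be read against all genes tested. Of those, 4.92% passed as higher and 23% as lower in the pulldown in paclitaxel mice, and 5.09% and 24.7% in normal mice. Satellite glia markers passed as lower in the pulldown for 6 of 7 genes in both treatments, and their summed level was 231 to 305 CPM in paclitaxel pulldowns, 842 to 1173 CPM in paclitaxel inputs, 223 to 391 CPM in normal pulldowns and 490.5 to 1499 CPM in normal inputs. Among 7 markers of myelinating Schwann cells, 6 passed as lower in paclitaxel and 7 in normal mice, with sums of 2045 to 2721 CPM in paclitaxel pulldowns, 6516 to 8599 CPM in paclitaxel inputs, 1894 to 3068 CPM in normal pulldowns and 5786 to 10330 CPM in normal inputs. The lower calls numbered 4 of 6 and 4 of 6 for fibroblasts, 5 of 6 and 4 of 6 for endothelium, 3 of 5 and 2 of 5 for pericytes, 4 of 5 and 1 of 5 for macrophages, and 7 of 7 and 5 of 7 for large-fibre neurons, in paclitaxel and normal mice in that order. Of 9 nociceptor markers, 6 passed as higher and 0 as lower in paclitaxel mice, and 2 and 2 in normal mice; of 6 pan-neuronal markers, 3 and 1 did in paclitaxel mice and 2 and 2 in normal mice. No marker of these lists was at 0 in all libraries, and their part in the changes of the guidance genes was not tested. In bulk ganglion RNA, fewer cells of a type and less RNA per cell cannot be told apart.

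**Figure D1:**
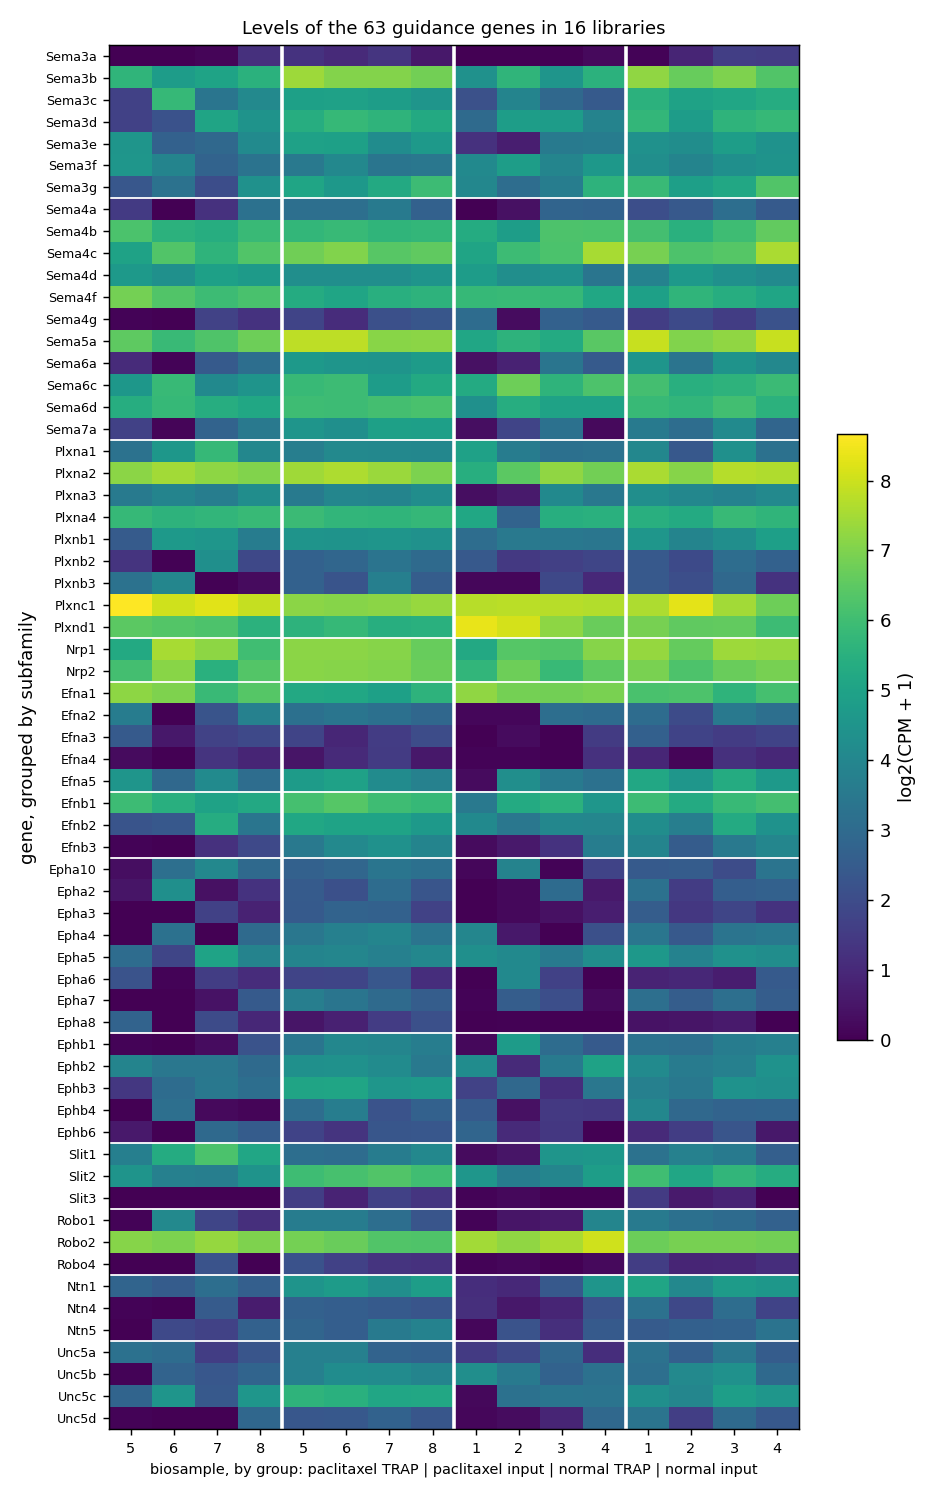
Level of each of the 63 guidance genes (rows, grouped by subfamily) in the 16 libraries (columns, by group and biosample number), as log2(CPM + 1). Plxnc1 is bright in all 16 libraries, while Slit3 is dark in every pulldown.

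Within the filter, the genes nearest its edge were Epha8 and Slit3 (4 libraries at 1 CPM or more), Efna4 (5 libraries) and Sema3a (6 libraries). The 5 genes just outside were Sema5b (3 libraries), Sema6b, Robo3 and Dcc (2 libraries each) and Epha1 (0 libraries). All 9 plexins, both neuropilins, all 8 ephrins and all 5 EphB receptors of the list were kept. Of 252 values per group, 45 in paclitaxel pulldowns, 0 in paclitaxel inputs, 40 in normal pulldowns and 5 in normal inputs stood at or under 3 reads. The low values in the pulldowns were spread over 25 genes in paclitaxel mice and 20 genes in normal mice.

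The first comparison asked which guidance transcripts were held by tagged nociceptor ribosomes, relative to the whole ganglion. In paclitaxel mice 3 of the 63 genes passed as higher in the pulldown and 21 as lower, and in normal mice the counts were again 3 and 21 (limma with biosample as a block, adjusted p under 0.05 over all genes tested). Over all genes tested, 4.92% passed as higher and 23% as lower in paclitaxel mice, and 5.09% and 24.7% in normal mice. The guidance genes thus stood at 4.76% higher and 33.3% lower in both treatments, the higher share close to that of all genes. Their median log2 change was -0.87 in paclitaxel mice, where that of all genes was -0.56, and -1.04 in normal mice, where that of all genes was -0.66. Changes below are on the log2(CPM + 1) scale with their SE, understate the change of genes at low levels, and are to be read against those medians. Counts by family below are to be read against those shares of all genes. Under median-ratio scaling the medians of all genes were -0.29 and -0.33, and the split of guidance genes was 5 higher to 14 lower in paclitaxel and 4 higher to 7 lower in normal mice. Under quantile normalization those medians were 0.04 and 0, and the splits were 7 to 11 and 4 to 4. The share of guidance genes passing as lower in normal mice was then 11.1% under median-ratio scaling, where that of all genes was 12.0%, and 6.35% under quantile normalization, where that of all genes was 9.77%. In paclitaxel mice it was 22.2%, with 13.7% of all genes, and 17.5%, with 10.5% of all genes. The larger share of lower calls among guidance genes in normal mice was thus not seen under either other scaling. Of the 21 lower calls in normal mice, 7 were kept under median-ratio scaling (Sema3b, Sema3c, Sema3e, Sema5a, Sema6a, Efna5 and Ntn1) and 4 under quantile normalization (Sema3b, Sema3c, Sema5a and Plxna2); in paclitaxel mice 14 and 11 of 21 were kept, and all 3 higher calls were kept in both treatments.

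On the values as deposited, Efna1 alone passed as higher in both treatments. Under median-ratio scaling Plxnc1, Plxnd1 and Robo2 did as well. As deposited, 12 genes passed as lower in both: Sema3b, Sema3g, Sema5a, Sema6a, Sema7a, Efnb3, Slit2 and Ntn1 among ligands, and Epha3, Ephb3, Ephb4 and Unc5c among receptors. Lower in paclitaxel mice alone by this threshold were Sema3d, Sema4c, Efnb2, Epha4, Epha7, Ephb1, Slit3, Ntn4 and Unc5b. Lower in normal mice alone were Sema3c, Sema3e, Sema6d, Plxna2, Plxna3, Nrp1, Efna3, Efna5 and Efnb1. Passing in one treatment and not the other does not show a difference, and that test is given further on. In neither treatment did 28 of the 63 genes pass.

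**Figure D2:**
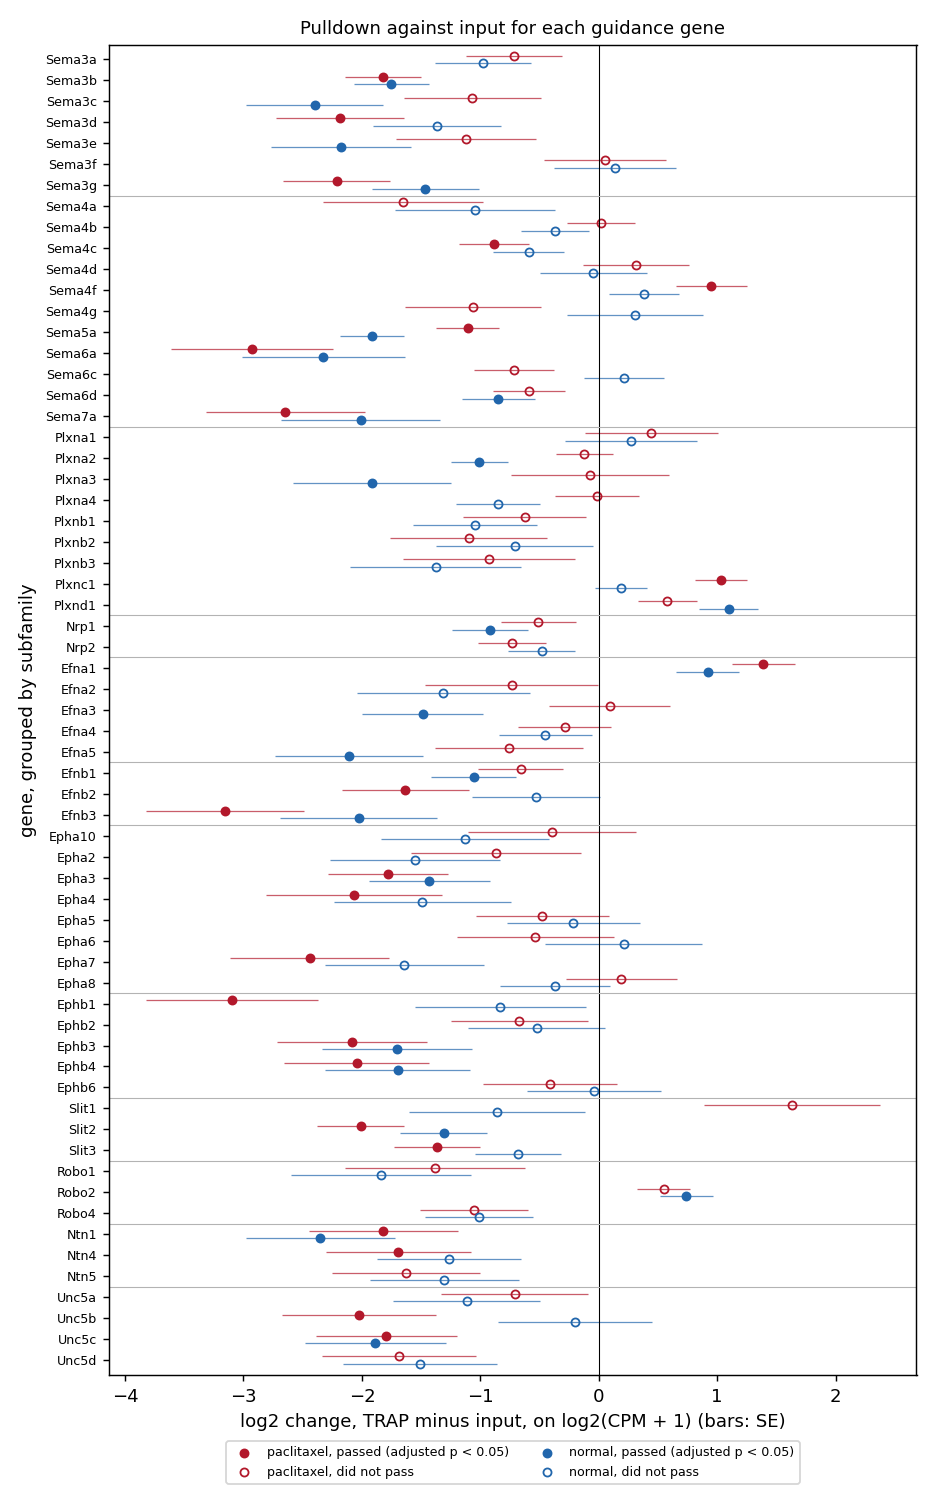
Log2 change between pulldown and input (x axis, TRAP minus input on log2(CPM + 1), bars are SE) for each guidance gene (y axis, grouped by subfamily) in paclitaxel mice (red, upper of each pair) and normal mice (blue), with filled points where the adjusted p was under 0.05. Most points lie left of 0; Efna1 is filled on the right in both treatments, Plxnc1 and Sema4f in paclitaxel mice, and Plxnd1 and Robo2 in normal mice.

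Of 18 semaphorin ligands, 7 passed as lower in the pulldown in paclitaxel mice and 8 in normal mice, and the others did not pass as lower. Of 7 class 3 semaphorins, which are secreted and bind neuropilin and plexin complexes, 3 passed as lower in paclitaxel and 4 in normal mice, and 0 as higher in either. Sema3b, the class 3 gene with the highest mean, had 50.4, 26.8, 31.6 and 45.5 CPM in paclitaxel pulldowns (biosamples 5 to 8) and 169, 131, 131 and 113 CPM in paclitaxel inputs. In normal pulldowns (biosamples 1 to 4) it had 19.7, 50.2, 22.2 and 46.9 CPM, against 149, 99.8, 126 and 78.3 CPM in normal inputs. Every pulldown lay below every input in both treatments. The log2 change of Sema3b was -1.82 ± 0.32 in paclitaxel mice (limma adjusted p = 0.000365) and -1.75 ± 0.32 in normal mice (limma adjusted p = 0.000357), and both calls held under every alternative that was run.

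Sema3g had 4.06, 8.68, 3.09 and 19.95 CPM in paclitaxel pulldowns and 33.4, 23.4, 37.0 and 59.97 CPM in paclitaxel inputs, without overlap. Its levels were 15.1, 7.53, 11.8 and 48.05 CPM in normal pulldowns and 57.5, 28.4, 35.4 and 78.5 CPM in normal inputs, where only the pulldown of biosample 4 reached into the range of the inputs. The change was -2.21 ± 0.45 in paclitaxel mice (limma adjusted p = 0.00142). In normal mice it was -1.46 ± 0.45 (limma adjusted p = 0.0185), a call that ended without biosample 1, 2 or 3 (limma adjusted p between 0.054 and 0.0799) and without the block (0.061). Sema3c, also a class 3 ligand, had 3.44, 13.9, 6.66 and 4.52 CPM in normal pulldowns and 46.3, 30.75, 34.1 and 40.1 CPM in normal inputs, again without overlap. There the change was -2.40 ± 0.58 (limma adjusted p = 0.00394). In paclitaxel mice the Sema3c pulldowns spread from 2.23 to 55.2 CPM and the inputs from 22.0 to 29.9 CPM, and the gene did not pass (limma adjusted p = 0.168). Sema3e, the class 3 ligand that binds Plxnd1 directly, had 1.35, 0.67, 10.9 and 11.4 CPM in normal pulldowns and 20.1, 17.9, 27.4 and 20.4 CPM in normal inputs, without overlap, and a change of -2.18 ± 0.59 (limma adjusted p = 0.00875). Sema3d passed in paclitaxel mice, with 2.23, 3.52, 32.3 and 20.8 CPM in pulldowns and 41.4, 55.5, 48.2 and 37.2 CPM in inputs, without overlap. Its change there was -2.18 ± 0.54 (limma adjusted p = 0.00537; 0.0512 without biosample 6).

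Among 11 semaphorins of classes 4 to 7, which are anchored in the membrane, 1 passed as higher and 4 as lower in paclitaxel mice, and 0 as higher and 4 as lower in normal mice. Sema5a, a transmembrane semaphorin with thrombospondin repeats, had 91.7, 58.1, 76.0 and 108 CPM in paclitaxel pulldowns and 221, 225, 138 and 141 CPM in paclitaxel inputs. Its levels were 34.1, 47.3, 38.2 and 86.4 CPM in normal pulldowns and 245, 131, 148 and 243 CPM in normal inputs. No pulldown reached the lowest input of its treatment. The change was -1.11 ± 0.27 in paclitaxel mice (limma adjusted p = 0.00459; 0.0584 without biosample 6) and -1.92 ± 0.27 in normal mice (limma adjusted p = 1.97e-05), the normal call holding under every alternative run. In the pulldown subsamples of biosample 7, Sema5a stood at 28.8 and 123 CPM.

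Sema6a, a transmembrane ligand of A-type plexins, had 1.11, 0.06, 4.48 and 7.75 CPM in paclitaxel pulldowns and 24.6, 21.8, 21.6 and 26.3 CPM in paclitaxel inputs. It had 0.3, 0.78, 9.25 and 4.52 CPM in normal pulldowns and 22.2, 9.02, 20.65 and 15.5 CPM in normal inputs. The groups stood apart in paclitaxel mice and overlapped in normal mice through pulldown 3 and input 2. The change was -2.93 ± 0.69 in paclitaxel mice (limma adjusted p = 0.00376, kept under every alternative run) and -2.33 ± 0.69 in normal mice (limma adjusted p = 0.0145; 0.11 without biosample 1).

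Sema7a, a GPI-anchored semaphorin that binds integrins and plexin C1, had 2.16, 0.09, 5.77 and 10.4 CPM in paclitaxel pulldowns and 21.8, 19.0, 29.2 and 28.8 CPM in paclitaxel inputs. Normal pulldowns held 0.25, 2.42, 8.42 and 0.17 CPM of it and normal inputs 10.6, 7.61, 16.6 and 6.09 CPM. All paclitaxel pulldowns were below all paclitaxel inputs, while in normal mice the pulldown of biosample 3 lay among the inputs. The change was -2.65 ± 0.67 in paclitaxel mice (limma adjusted p = 0.00616; 0.0534 without biosample 6) and -2.01 ± 0.67 in normal mice (limma adjusted p = 0.0276; 0.135 without biosample 1 and 0.09 without biosample 4).

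**Figure D3:**
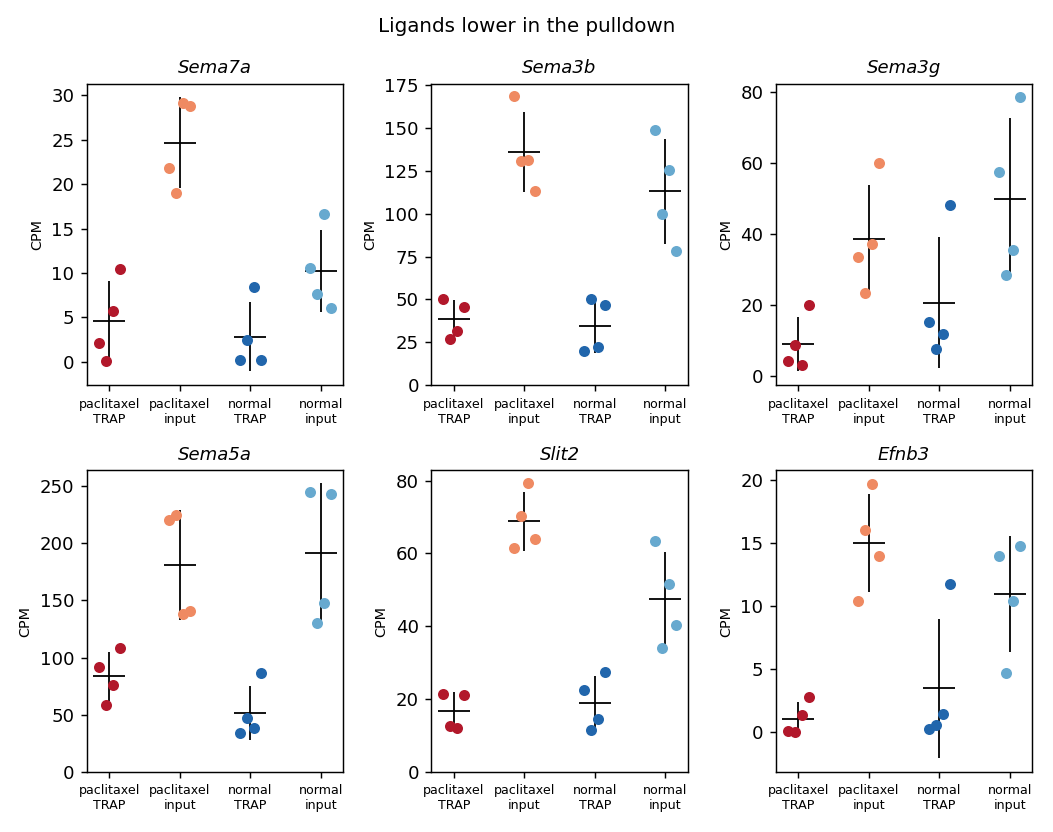
CPM of 6 guidance ligands that were lower in the pulldown, by library (points), with the mean (bar) and SD (line) of each group: paclitaxel TRAP, paclitaxel input, normal TRAP and normal input. For Sema3b and Sema5a every pulldown lies below every input of its treatment.

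Sema4f, a transmembrane class 4 semaphorin, was the semaphorin that passed as higher. It had 116, 78.4, 61.1 and 71.0 CPM in paclitaxel pulldowns and 39.1, 33.1, 43.0 and 48.2 CPM in paclitaxel inputs, and every pulldown was above every input. In normal mice the pulldowns had 54.7, 56.9, 54.7 and 34.7 CPM and the inputs 29.4, 50.5, 40.9 and 33.05 CPM, so the groups overlapped although each pulldown exceeded its own input. The change was 0.95 ± 0.30 in paclitaxel mice (limma adjusted p = 0.0205) and 0.38 ± 0.30 in normal mice (limma adjusted p = 0.331). The paclitaxel call ended without biosample 5 (limma adjusted p = 0.146) or biosample 6 (0.0931).

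Plexins, the receptors of the semaphorins, were spread on both sides of 0. Of 9 plexins, 1 passed as higher and 0 as lower in paclitaxel mice, and 1 as higher and 2 as lower in normal mice. Their median change in paclitaxel mice was -0.08, and it turned to 0.22 under median-ratio scaling and 0.23 under quantile normalization; in normal mice it stayed below 0 under both, at -0.43 and -0.21, with -0.85 as deposited.

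Plxnc1, the plexin that binds Sema7a, had 406, 261, 309 and 240.3 CPM in paclitaxel pulldowns and 143, 137, 142 and 159 CPM in paclitaxel inputs. In normal mice it had 210.4, 216, 214 and 202 CPM in pulldowns and 193, 318, 177 and 108 CPM in inputs. The paclitaxel groups stood well apart, and the narrow normal pulldowns lay inside the wide range of normal inputs. The change was 1.03 ± 0.22 in paclitaxel mice (limma adjusted p = 0.00206), higher in 4 of 4 biosamples and under every alternative run, and 0.19 ± 0.22 in normal mice (limma adjusted p = 0.531). In normal mice Plxnc1 did pass as higher under median-ratio scaling, and not under quantile normalization. The receptor and its ligand therefore lay on opposite sides of 0 in paclitaxel mice, with Plxnc1 higher and Sema7a lower in the pulldown. An exon of Plxnc1 overlaps Gm48718 on the same strand in the GENCODE annotation, so their reads could not be split by strand.

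The RefSeq promoters (GRCm38.p6) of this receptor and its ligand are shown because the pair passed in opposite directions in paclitaxel mice; each runs from 250 bases before the start to 50 bases after it, 5′ to 3′ on the gene's strand, with GGGCGG and its reverse complement CCGCCC, the GC box bound by Sp1, in capitals. Plxnc1 lies at chr10:94944796-94945095 on the minus strand and Sema7a at chr9:57939862-57940161 on the plus strand.
Plxnc1: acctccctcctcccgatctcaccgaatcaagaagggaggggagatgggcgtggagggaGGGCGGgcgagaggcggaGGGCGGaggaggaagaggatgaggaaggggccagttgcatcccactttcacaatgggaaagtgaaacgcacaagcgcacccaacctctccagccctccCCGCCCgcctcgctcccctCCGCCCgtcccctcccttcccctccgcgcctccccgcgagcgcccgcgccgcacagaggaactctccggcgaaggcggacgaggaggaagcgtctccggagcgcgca
Sema7a: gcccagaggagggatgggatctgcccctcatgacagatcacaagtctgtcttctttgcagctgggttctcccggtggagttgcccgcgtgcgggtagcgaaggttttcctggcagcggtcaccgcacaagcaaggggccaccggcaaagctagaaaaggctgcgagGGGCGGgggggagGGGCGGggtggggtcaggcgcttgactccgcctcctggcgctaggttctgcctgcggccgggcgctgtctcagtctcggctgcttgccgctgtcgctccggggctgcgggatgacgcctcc
The Plxnc1 promoter has 69% G and C, 30 CpG and 4 GC boxes, and that of Sema7a has 67.3% G and C, 23 CpG and 2 GC boxes. Promoters in the table matched 54 of the 63 genes, with 69 sequences in all. GGGCGG on either strand was in 69.6% of those 69, and in 35.7% of all 32851 promoters of the table. The other motifs searched on both strands were CCAAT (29% of the 69 and 37.4% of all), TATAAA (2.9% and 13.6%), CANNTG (52.2% and 72.3%) and CACGTG (7.25% and 7.15%), the last being 1 form of CANNTG. These shares describe letters in a window and were not set against the measured changes.

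Plxnd1 (chr6:115954811-115995005, minus strand), a receptor of Sema3e known from vessel patterning, had 89.3, 80.1, 74.2 and 46.7 CPM in paclitaxel pulldowns and 47.9, 55.4, 41.8 and 44.1 CPM in paclitaxel inputs. It had 330.45, 276, 144 and 103 CPM in normal pulldowns and 119, 93.1, 94.6 and 60.2 CPM in normal inputs. Each pulldown was above its own input, and in both treatments 1 pulldown reached into the range of the inputs. The change was 0.58 ± 0.25 in paclitaxel mice (limma adjusted p = 0.0858) and 1.10 ± 0.25 in normal mice (limma adjusted p = 0.00254). In paclitaxel mice Plxnd1 passed as higher under median-ratio scaling and quantile normalization. Without biosamples 1, 2, 5 and 6, whose pulldowns held 9715 to 10884 genes at 1 CPM or more, the normal change was 0.68 (limma adjusted p = 0.134).

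Plxna2, a receptor of class 6 semaphorins and of class 3 semaphorins with neuropilins, had 142, 178, 146.5 and 128 CPM in paclitaxel pulldowns and 172, 193, 164 and 122 CPM in paclitaxel inputs, which overlapped. In normal mice the pulldowns had 42.3, 89.1, 148 and 112 CPM and the inputs 189, 135, 208 and 198 CPM. Each normal pulldown was below its own input, and that of biosample 3 reached the range of the inputs. The change was -0.12 ± 0.24 in paclitaxel mice (limma adjusted p = 0.728) and -1.01 ± 0.24 in normal mice (limma adjusted p = 0.00361; 0.0772 under median-ratio scaling). Plxna3, another A-type plexin, was at 0.25, 0.56, 16.1 and 10.2 CPM in normal pulldowns and at 13.3 to 18.4 CPM in normal inputs. Its change of -1.92 ± 0.67 in normal mice (limma adjusted p = 0.0333) was lost without biosample 1 (limma adjusted p = 0.212) or biosample 2 (0.151).

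Nrp1, the neuropilin that binds Sema3a and VEGF, had 37.15, 185, 146.55 and 63.7 CPM in paclitaxel pulldowns and 141, 142, 135 and 100.1 CPM in paclitaxel inputs, with the pulldowns on both sides of the inputs. Normal pulldowns had 36.5, 81.7, 78.1 and 134 CPM and normal inputs 157, 98.4, 168 and 160 CPM. All but the pulldown of biosample 4 were below every normal input. The change was -0.51 ± 0.32 in paclitaxel mice (limma adjusted p = 0.233) and -0.92 ± 0.32 in normal mice (limma adjusted p = 0.0327), the normal call ending without biosample 1 (limma adjusted p = 0.256), biosample 3 (0.102) or the block (0.098). Nrp2 did not pass in either treatment, at -0.73 ± 0.29 in paclitaxel and -0.48 ± 0.29 in normal mice.

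Ephrins divided by class in paclitaxel mice, where 1 of 5 A ephrins passed as higher and 0 as lower, and 2 of 3 B ephrins passed as lower. In normal mice 1 A ephrin passed as higher and 2 as lower, and 2 B ephrins as lower. The difference between the classes was not tested, and the median change of the A ephrins in paclitaxel mice was -0.29, turning to 0.82 under quantile normalization, with -1.64 for the B ephrins. Efna1 (chr3:89271733-89281142 of GRCm38, minus strand), a GPI-anchored ephrin that activates EphA receptors, had 147, 126, 58.2 and 81.6 CPM in paclitaxel pulldowns and 36.4, 34.8, 29.4 and 47.3 CPM in paclitaxel inputs. It had 149, 114, 112 and 121 CPM in normal pulldowns and 71.1, 74.2, 48.9 and 67.5 CPM in normal inputs. No pulldown overlapped the inputs of its treatment. The change was 1.39 ± 0.27 in paclitaxel mice (limma adjusted p = 0.000833) and 0.92 ± 0.27 in normal mice (limma adjusted p = 0.0127). Without biosample 3 the normal change was 0.83 (limma adjusted p = 0.0609), and without biosamples 1, 2, 5 and 6 the paclitaxel change was 0.87 (0.0639).

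Efnb3, a transmembrane ligand of EphB receptors and EphA4, was low in most pulldowns. It had 0.07, 0, 1.38 and 2.74 CPM in paclitaxel pulldowns and 10.4, 16.0, 19.7 and 13.9 CPM in paclitaxel inputs. In normal pulldowns it had 0.2, 0.52, 1.39 and 11.7 CPM, and in normal inputs 14.0, 4.71, 10.4 and 14.8 CPM. The paclitaxel groups were fully apart, and in normal mice the pulldown of biosample 4 lay among the inputs. The change was -3.16 ± 0.66 in paclitaxel mice (limma adjusted p = 0.00177, kept under every alternative run) and -2.03 ± 0.66 in normal mice (limma adjusted p = 0.0252; 0.0573 to 0.16 without biosample 1, 2 or 3). Efnb1, the B ephrin with the highest mean, fell by 1.05 ± 0.36 in normal mice (limma adjusted p = 0.03; 0.239 without biosample 1 and 0.109 without biosample 4), and its change in paclitaxel mice was -0.66 ± 0.36 (limma adjusted p = 0.169). Efna5, an A ephrin, had 0.2, 18.7, 11 and 8.37 CPM in normal pulldowns, all below the 36.0, 22.4, 39.65 and 25.1 CPM of normal inputs. Its change was -2.11 ± 0.62 in normal mice (limma adjusted p = 0.0145; 0.157 without biosample 1) and -0.76 ± 0.62 in paclitaxel mice (limma adjusted p = 0.371).

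**Figure D4:**
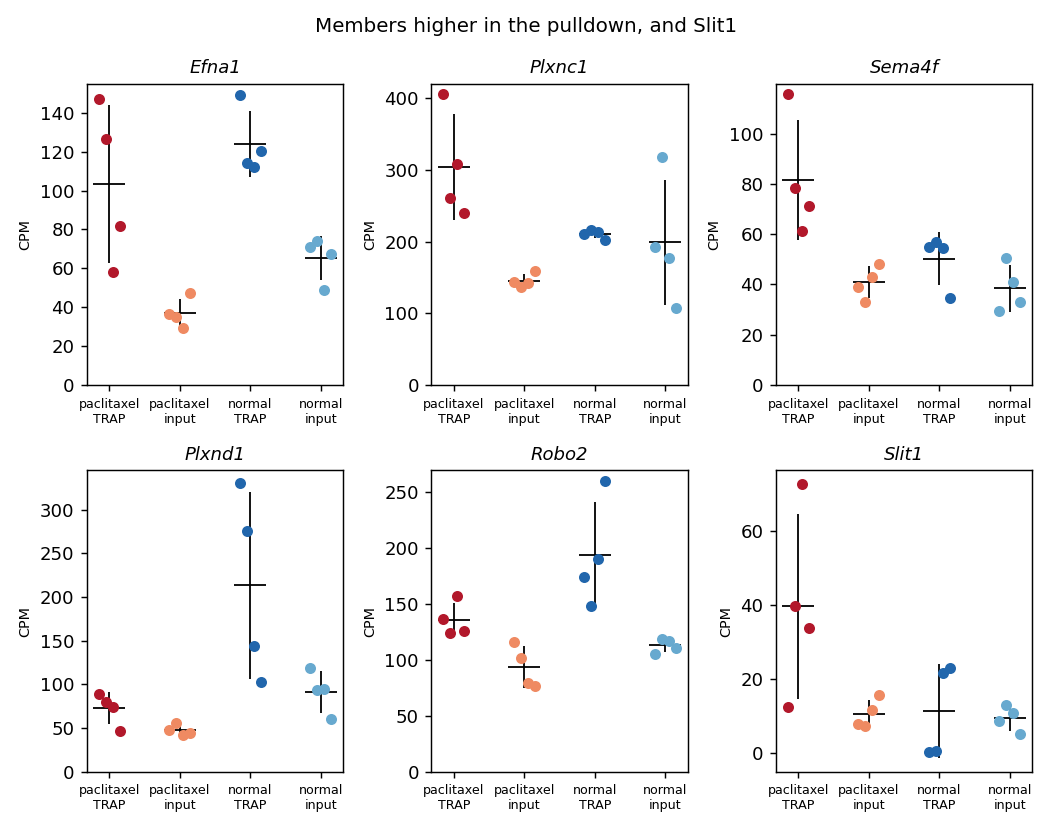
CPM of the 5 guidance genes that passed as higher in the pulldown in at least 1 treatment, and of Slit1, by library (points), with the mean (bar) and SD (line) of each group: paclitaxel TRAP, paclitaxel input, normal TRAP and normal input. Efna1 pulldowns lie above the inputs in both treatments, and the 4 paclitaxel pulldowns of Plxnc1 lie between 240.3 and 406 CPM.

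No Eph receptor passed as higher, where 4.92% of all genes did in paclitaxel and 5.09% in normal mice. The median of the EphA receptors in paclitaxel mice, -0.70, turned to 0.35 under quantile normalization. In paclitaxel mice 3 of 8 EphA and 3 of 5 EphB receptors were lower, and in normal mice 1 EphA and 2 EphB receptors. As lower, 23% of all genes passed in paclitaxel and 24.7% in normal mice. Epha5 and Ephb2, those with the highest means of the 2 classes, passed in neither, with changes of -0.48 ± 0.56 and -0.67 ± 0.58 in paclitaxel mice. Ephb1, a receptor of B ephrins, had 0.07, 0, 0.21 and 3.69 CPM in paclitaxel pulldowns and 9.4, 14.95, 14.4 and 11.8 CPM in paclitaxel inputs. Normal pulldowns spread over 0.15, 25.8, 7.34 and 4.52 CPM, around the 8.42, 7.92, 11.3 and 12.7 CPM of normal inputs. Only the paclitaxel groups were apart, with a change of -3.10 ± 0.72 (limma adjusted p = 0.00373); in normal mice it was -0.83 ± 0.72 (limma adjusted p = 0.385).

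Ephb3, a second receptor of B ephrins, had 1.64, 7.28, 10.2 and 7.85 CPM in paclitaxel pulldowns and 32.4, 33.5, 22.75 and 24.5 CPM in paclitaxel inputs. It had 2.24, 6.56, 1.19 and 9.71 CPM in normal pulldowns and 12.7, 10.0, 20.2 and 19.0 CPM in normal inputs. No groups overlapped, although pulldown 4 and input 2 of the normal mice nearly met. The change was -2.08 ± 0.63 in paclitaxel mice (limma adjusted p = 0.0176; 0.136 without biosample 5 and 0.0568 without biosample 6). In normal mice it was -1.70 ± 0.63 (limma adjusted p = 0.0449), and leaving out biosample 1, 3, 4, 7 or 8 ended that call, with adjusted p between 0.0523 and 0.236. Other EphB and EphA receptors that passed were at low levels: Ephb4 and Epha3 in both treatments, and Epha4 and Epha7 in paclitaxel mice, with none above 15 CPM in any library. Of these, Epha7 had 0, 0, 0.33 and 4.54 CPM in paclitaxel pulldowns and 12.1, 9.38, 7.02 and 4.9 CPM in paclitaxel inputs, a change of -2.44 ± 0.67 (limma adjusted p = 0.0101) that was lost without biosample 5 or 6.

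Slit ligands differed among themselves. Slit2, a secreted ligand of Robo receptors, had 21.4, 12.7, 12.1 and 21.0 CPM in paclitaxel pulldowns and 61.5, 70.2, 79.4 and 63.95 CPM in paclitaxel inputs. It had 22.6, 11.6, 14.5 and 27.3 CPM in normal pulldowns and 63.45, 34.1, 51.6 and 40.3 CPM in normal inputs. Pulldowns were below inputs without overlap in both treatments. The change was -2.01 ± 0.37 in paclitaxel mice (limma adjusted p = 0.000531, kept under every alternative run) and -1.31 ± 0.37 in normal mice (limma adjusted p = 0.0106; 0.0589 without biosample 3). In the subsamples of biosample 7 the pulldown value of Slit2 was 0.37 and 23.7 CPM, and the input value 87.1 and 71.7 CPM.

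Slit3 was listed at 0 in all 4 paclitaxel pulldowns and had 2.04, 0.81, 2.18 and 1.53 CPM in paclitaxel inputs. It had 0.05, 0.15, 0 and 0 CPM in normal pulldowns and 1.81, 0.55, 0.83 and 0 CPM in normal inputs. It passed as lower in paclitaxel mice (limma adjusted p = 0.00816) and not in normal mice (limma adjusted p = 0.153), at levels where no fold is given. All 4 libraries with Slit3 at 1 CPM or more were inputs, so the gene met the filter only through the fraction where it was higher. Its lower call is therefore not independent of the filter. Epha3 (9 libraries at 1 CPM or more), Epha7 and Ntn4 (11 libraries each) also had fewer than 4 pulldowns at that level. Every input reached it, so their lower calls carry the same limit. Slit1, the other Slit, was measured in paclitaxel mice at 12.45, 39.7, 72.8 and 33.85 CPM in pulldowns and 7.87, 7.28, 11.6 and 15.6 CPM in inputs. In normal mice it had 0.2, 0.41, 21.7 and 22.9 CPM in pulldowns and 8.63, 13.1, 10.8 and 5.16 CPM in inputs. Paclitaxel pulldowns each exceeded their own input with a small overlap between the groups, and normal pulldowns lay 2 near 0 and 2 above the inputs. Neither change passed, at 1.63 ± 0.74 in paclitaxel mice (limma adjusted p = 0.102) and -0.86 ± 0.74 in normal mice (limma adjusted p = 0.381). Under quantile normalization, however, Slit1 passed as higher in paclitaxel mice. There its normal change lay above 0, since the median of the 3 Slits was 0.28 with Slit2 at -0.86.

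Robo2, a Slit receptor, had 136, 124, 157 and 125 CPM in paclitaxel pulldowns and 116, 101, 79.35 and 77.0 CPM in paclitaxel inputs. It had 174, 148, 190.1 and 259.7 CPM in normal pulldowns and 105, 119, 117 and 111 CPM in normal inputs. Pulldowns were above inputs without overlap in both treatments. The change was 0.55 ± 0.22 in paclitaxel mice (limma adjusted p = 0.0673), where the gene passed under median-ratio scaling and quantile normalization, and 0.74 ± 0.22 in normal mice (limma adjusted p = 0.016; 0.0862 without biosample 4). Robo1 and Robo4, a Robo receptor known from endothelium, passed in neither treatment.

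Of 3 netrins, 2 passed as lower in the pulldown in paclitaxel mice and 1 in normal mice, and of 4 Unc5 receptors, 2 and 1 did. In paclitaxel mice these calls ended under median-ratio scaling, for Ntn1 (limma adjusted p = 0.0866), Ntn4 (0.0878), Unc5b (0.0595) and Unc5c (0.0755), and under quantile normalization Unc5c alone passed. In normal mice Ntn1 passed under median-ratio scaling and not under quantile normalization (limma adjusted p = 0.0736), and Unc5c passed under neither (0.0631 and 0.114). Ntn1, the netrin that Dcc and Unc5 receptors bind, had 5.9, 4.74, 7.78 and 5.11 CPM in paclitaxel pulldowns and 21.25, 25.8, 18.5 and 27.4 CPM in paclitaxel inputs. Normal pulldowns had 1.2, 1.01, 4.34 and 22.1 CPM, with biosample 4 inside the range of the 33.5, 15.4, 26.3 and 23.0 CPM of normal inputs. The paclitaxel groups did not overlap. The change was -1.82 ± 0.63 in paclitaxel mice (limma adjusted p = 0.034) and -2.35 ± 0.63 in normal mice (limma adjusted p = 0.008). The paclitaxel call ended whichever of biosamples 5 to 8 was left out (limma adjusted p between 0.0585 and 0.113), and the normal call without biosample 1 (0.0668).

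Unc5c, a netrin receptor of axon repulsion, had 5.96, 22.1, 4.36 and 22.4 CPM in paclitaxel pulldowns and 48.9, 44.2, 34.35 and 35.5 CPM in paclitaxel inputs. It had 0.15, 8.35, 9.3 and 9.21 CPM in normal pulldowns and 18.9, 14.7, 27.8 and 22.5 CPM in normal inputs. Pulldowns were below inputs in both treatments without overlap. The change was -1.79 ± 0.59 in paclitaxel mice (limma adjusted p = 0.0272; 0.151 without biosample 5 and 0.131 without biosample 7) and -1.89 ± 0.59 in normal mice (limma adjusted p = 0.0202; 0.162 without biosample 1). Unc5b, a netrin receptor known from vessels, had 0.07, 5.72, 4.12 and 5.96 CPM in paclitaxel pulldowns and 12.8, 17.7, 17.2 and 13.9 CPM in paclitaxel inputs. The groups were apart, with a change of -2.02 ± 0.65 (limma adjusted p = 0.0235) that was lost without biosample 5 or 7; in normal mice it was -0.20 ± 0.65 (limma adjusted p = 0.831).

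In sum over single biosamples, 9 of the 24 paclitaxel calls were lost in no leave-one-out fit that tested the gene (Efna1, Efnb3, Ephb1, Plxnc1, Sema3b, Sema3g, Sema6a, Slit2 and Slit3). Slit3 fell under the filter without biosample 1, 5, 7 or 8 and was not tested there, so its call was checked only in part. Of the 24 normal calls, 6 held whichever biosample was left out (Plxna2, Plxnd1, Sema3b, Sema3c, Sema3e and Sema5a). The count of paclitaxel calls was 11 without biosample 5 and 14 without biosample 6, and that of normal calls 9 without biosample 1 and 14 without biosample 3. Exons of Ephb1, Ephb4, Sema4c, Efna3 and Unc5c overlap a gene on the opposite strand in the annotation. The strand setting of the counting is not given in the sources used here, so their values may include reads of that gene. An exon of Nrp1 overlaps Mir1903 on the same strand, so their reads could not be split by strand.

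The second comparison asked how paclitaxel changed the pulldown itself. Among the guidance genes 0 of 63 passed between paclitaxel and normal pulldowns (limma, adjusted p under 0.05), where 1.82% of all genes did. An unadjusted p under 0.05 was found for 4 of them, 2 of these higher. That was 6.35% of the guidance genes, where the share of all genes was 16.9%. The median change of the guidance genes was 0.26, and that of all genes 0.17. The lowest p belonged to Plxnd1, whose 4 paclitaxel pulldowns (46.7 to 89.3 CPM) all lay below the 4 normal pulldowns (103 to 330.45 CPM). Its change was -1.43 ± 0.37 (limma adjusted p = 0.066), and it passed with a pseudocount of 0.1 (0.0426), a filter of 5 CPM (0.0115), quantile normalization (0.0167) and without biosample 4 (0.037). The nociceptor marker Calca passed as higher in paclitaxel pulldowns, by 1.78 ± 0.31 (limma adjusted p = 0.0146), and its part in the values of the guidance genes was not tested.

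Slit1 was higher by 2.65 ± 1.05 in paclitaxel pulldowns without passing (limma adjusted p = 0.213), and its groups overlapped. Sema6c, a transmembrane semaphorin, had 23.1, 55.9, 16.5 and 21.4 CPM in paclitaxel pulldowns and 38.0, 106, 48.6 and 75.0 CPM in normal pulldowns, a change of -1.22 ± 0.46 (limma adjusted p = 0.192). Paclitaxel pulldown 6 alone reached the range of the normal ones. Epha8, an EphA receptor, had 5.83, 0, 2.99 and 0.95 CPM in paclitaxel pulldowns and 0, 0.04, 0 and 0 CPM in normal pulldowns, so that normal mice were at or under 3 reads throughout (limma adjusted p = 0.224).

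Across inputs, 1 guidance gene passed between paclitaxel and normal mice, where 1.64% of all genes did (limma, adjusted p under 0.05). At an unadjusted p under 0.05 there were 8, 5 of them higher. That was 12.7% of the guidance genes, where the share of all genes was 19.1%. The median change of the guidance genes was 0.16 and that of all genes 0.14. The gene that passed was Sema7a, at 21.8, 19.0, 29.2 and 28.8 CPM in paclitaxel inputs and 10.6, 7.61, 16.6 and 6.09 CPM in normal inputs. All 4 paclitaxel inputs were above all 4 normal inputs. Its change was 1.26 ± 0.30 (limma adjusted p = 0.0496), and the call was lost under 14 of 17 alternatives, among them leaving out biosample 1, 4, 5, 6, 7 or 8 (limma adjusted p between 0.0542 and 0.207). Fabp7, a satellite glia marker, was also higher in paclitaxel inputs, by 1.99 ± 0.37 (limma adjusted p = 0.0226), and Uchl1, a pan-neuronal marker, was lower, with a change of -1.14 ± 0.27 (0.0482). Kdr, the endothelial VEGF receptor, was higher too, with a change of 0.91 ± 0.21 (limma adjusted p = 0.0432). The part of these markers in the input values of the guidance genes was not tested.

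Plxnd1 was lower in paclitaxel inputs too, at 47.9, 55.4, 41.8 and 44.1 CPM against 119, 93.1, 94.6 and 60.2 CPM in normal inputs. The groups did not overlap, and the change of -0.91 ± 0.22 was just short of passing (limma adjusted p = 0.0539). It passed under median-ratio scaling (0.039) and quantile normalization (0.0499), and without biosample 2 (0.0427) or 4 (0.0334). Unc5c was at 48.9, 44.2, 34.35 and 35.5 CPM in paclitaxel inputs and 18.9, 14.7, 27.8 and 22.5 CPM in normal inputs, also without overlap, with a change of 0.95 ± 0.24 (limma adjusted p = 0.0597; 0.0496 without biosample 2 and 0.0375 without biosample 3). Efna1 was at 36.4, 34.8, 29.4 and 47.3 CPM in paclitaxel inputs and 71.1, 74.2, 48.9 and 67.5 CPM in normal inputs, with every paclitaxel input below every normal one. Its change was -0.81 ± 0.22 (limma adjusted p = 0.0727; 0.0445 without biosample 3).

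**Figure D5:**
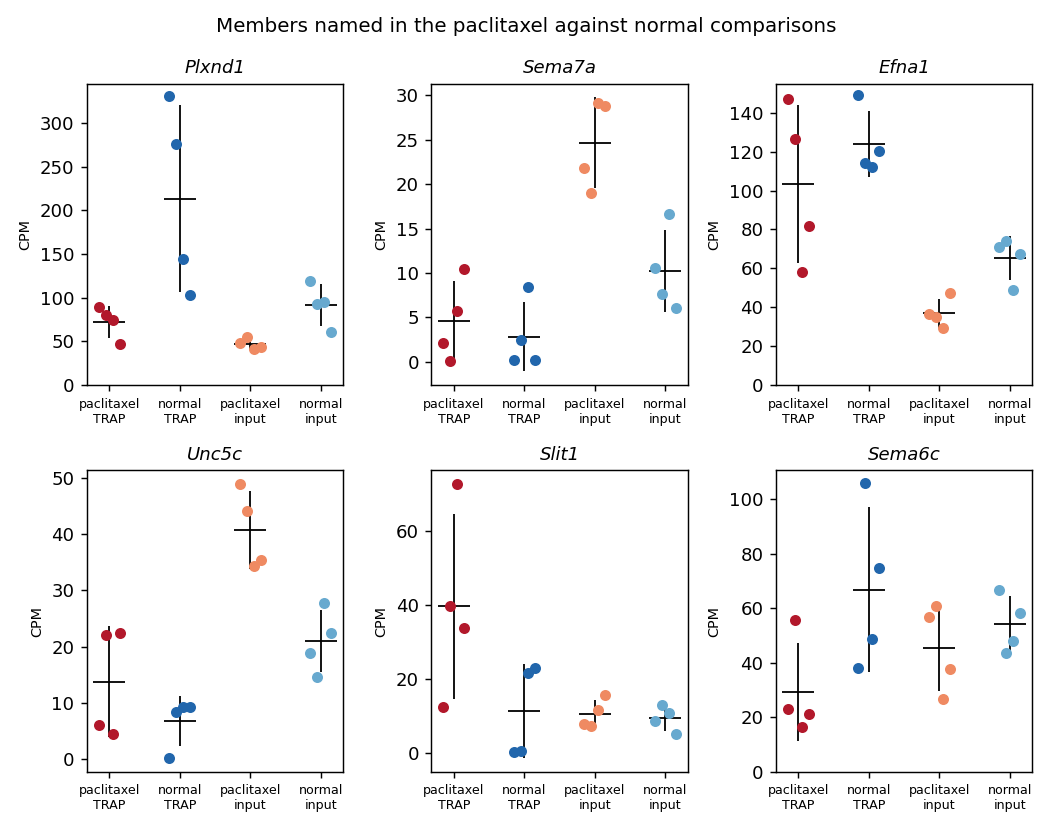
CPM of 6 guidance genes named in the comparisons between treatments, by library (points), with the mean (bar) and SD (line) of each group: paclitaxel TRAP, normal TRAP, paclitaxel input and normal input. Plxnd1 is lower with paclitaxel in both fractions without overlap, and Sema7a is higher with paclitaxel in the input.

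Whether paclitaxel changed the step from input to pulldown was tested as an interaction, which uses the same libraries as the comparisons above. Of the 63 guidance genes 0 passed (limma, adjusted p under 0.05), where 0.19% of all genes did. An unadjusted p under 0.05 was found for 6, or 9.52% of the guidance genes, where the share of all genes was 11.3%. In 5 of the 6 the difference was positive, the difference being the signed change in paclitaxel mice minus that in normal mice. A positive difference can be a smaller decrease, as for Plxna2 at -0.12 in paclitaxel and -1.01 in normal mice. The lowest p belonged to Plxnc1, with changes of 1.03 in paclitaxel and 0.19 in normal mice and a difference of 0.84 ± 0.31 (limma adjusted p = 0.285). For Plxna2 this difference was 0.89 ± 0.34 (limma adjusted p = 0.307), for Slit1 2.49 ± 1.05 (0.37) and for Ephb1 -2.27 ± 1.02 (0.399). The counts of genes passing in 1 treatment alone, given above, are therefore not shown to differ between treatments.

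A list of 64 genes of guidance signalling beyond the ligands and receptors, such as kinases, adhesion co-receptors and cytoskeletal effectors, was set beside them. In paclitaxel mice 3 of 64 passed as higher in the pulldown and 17 as lower, and in normal mice 1 and 18. These counts are to be read against the shares of all genes tested. Those shares were 4.92% higher and 23% lower in paclitaxel mice, and 5.09% and 24.7% in normal mice. The median change of the list was -0.47 in paclitaxel and -0.53 in normal mice, against -0.56 and -0.66 for all genes. L1cam, an adhesion molecule that associates with Nrp1, averaged 284 ± 67.9 CPM in paclitaxel pulldowns and 143 ± 17.8 CPM in paclitaxel inputs, a change of 0.96 ± 0.23 (limma adjusted p = 0.00376). Dpysl3, a collapsin response mediator protein, and Cdk5, a kinase in semaphorin signalling, rose by 0.74 ± 0.20 (limma adjusted p = 0.00903) and 0.82 ± 0.26 (0.0211). Lower in paclitaxel pulldowns were Rock1, a kinase acting on the cytoskeleton, at -1.72 ± 0.27 (limma adjusted p = 0.000129), the contactin Cntn1 at -1.11 ± 0.20 (0.000499) and Mical2, an actin-oxidising enzyme, at -3.43 ± 0.63 (0.000563).

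In normal mice Arhgef11, a guanine nucleotide exchange factor, was higher in the pulldown by 1.37 ± 0.43 (limma adjusted p = 0.0196). Lower were Cntn1 at -1.67 ± 0.20 (limma adjusted p = 3.96e-06), the collapsin response mediator Dpysl2 at -1.12 ± 0.19 (0.000158) and the kinase Gsk3b at -0.95 ± 0.18 (0.000665). Between pulldowns 1 gene of the list passed: Cfl1, the actin-severing cofilin, averaged 381 ± 62.9 CPM in paclitaxel and 174 ± 66.5 CPM in normal mice, a change of 1.18 ± 0.28 (limma adjusted p = 0.0457). Between inputs the gene that passed was Farp1, a guanine nucleotide exchange factor, at 16.1 ± 3.27 CPM in paclitaxel and 4.02 ± 2.37 CPM in normal mice, a change of 1.88 ± 0.35 (limma adjusted p = 0.0227). In the interaction 0 of the 64 passed. Of all genes tested, 1.82% passed between pulldowns, 1.64% between inputs and 0.19% in the interaction.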

How the data were processed

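The values, headed TPM in the 1 table deposited by the authors, are read here as CPM: the authors scaled read counts per gene to the same total in each column, per the file headers and the values. From 98.2% to 99.6% of low values are whole multiples of 1 step within 0.0051 CPM, and no gene-length scaling was seen. Per the labels, libraries were QuantSeq 3′ libraries; the submitters' processing notes name FastQC 0.11.5, TopHat2 2.1.1, Bowtie2 2.2.9, Cufflinks 2.2.1 and the build GRCm38.p4. Of the table's sample columns 2 merged ones were not used. Whole reads were not recovered by the stricter test for 11 of 18 columns, so no count model was run. The subsamples of biosample 7 were averaged.

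Tests were run with limma 3.58.1 in R 4.3.3 (trend on) on log2(CPM + 1) over 14214 genes, with Benjamini-Hochberg adjustment over them and a threshold of 0.05; the fit was tested on simulated data. TRAP against input and the interaction used all 16 libraries with biosample as a block, since both fractions came from 1 homogenate; deviations of same-numbered libraries correlated at 0.053 to 0.376, and 8 of 8 pulldowns were closest to their own input. Paclitaxel against normal was fitted within each fraction. Named with values are the gene with the highest mean in each subfamily, up to 8 passing genes per direction with at least 5 CPM, the 4 lowest p where fewer than 2 passed, and up to 3 genes per direction of the signalling list. Values are given for biosamples in order of number. The genes and lists were chosen with earlier results of these data known. Positions are from GENCODE for GRCm38 and promoters from RefSeq. Alternatives were 2 pseudocounts, 2 filters, 2 scalings, no block, each subsample alone, each biosample left out, and 4 biosamples left out together.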

Additional observations from a re-analysis of the deposited data

Results flagged for a closer look

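Among 24 guidance genes, each group of 4 libraries was examined for a library far from the rest (Dixon's test at its 95% critical value), and 9 of 96 groups held one; chance gives about 1 in 20. In normal pulldown 4, the highest of its group, Efnb3 stood at 11.7 CPM and Ntn1 at 22.1 CPM, and Sema4f was the lowest at 34.7 CPM. In normal pulldown 1 Unc5c was far below the others at 0.15 CPM, and in normal pulldown 2 Epha8 had 0.04 CPM where the others had 0, a gap of under 3 reads. In paclitaxel pulldown 8 Ephb1 stood above the others at 3.69 CPM, and in paclitaxel pulldown 6 Sema6c did at 55.9 CPM. Nrp1 was lowest by a wide gap in paclitaxel input 8 at 100.1 CPM and in normal input 2 at 98.4 CPM.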

How the results depend on the processing

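Each gene that passed a comparison, or was named for a low p in it, was refitted in that comparison under the alternatives. None of those changes reversed, and 811 values kept their side of the threshold, 235 lost it and 11 gained it. Other values given above were not counted here. Among them the normal change of Slit1, -0.86 as deposited, lay above 0 under quantile normalization. In paclitaxel mice the count of guidance genes passing between pulldown and input, 24, was 11 with no filter and 13 without biosamples 1, 2, 5 and 6, and ran from 11 to 26 with 1 biosample left out. In normal mice the count of 24 was 7 with no filter, 11 under median-ratio scaling, 8 under quantile normalization, 12 with subsample 1 of biosample 7 alone and 9 without biosamples 1, 2, 5 and 6, and ran from 9 to 25 with 1 biosample left out. Without the replicate block the counts were 22 and 21, and 0 for the interaction, and of the named genes Epha4, Sema4c, Ephb4, Nrp1 and Sema3g lost a call; no paired analysis was possible between treatments because their biosamples share no numbers. The interaction stayed at 0 under every alternative run. Between pulldowns the count of 0 became 1 (Plxnd1) with a pseudocount of 0.1, a filter of 5 CPM and quantile normalization, and ran from 0 to 1 with 1 biosample left out. Between inputs the count of 1 became 0 with a pseudocount of 0.1, no filter, a filter of 5 CPM, either subsample alone and without biosamples 1, 2, 5 and 6, and ran from 0 to 3 with 1 biosample left out; under both other scalings the 1 gene was Plxnd1 in place of Sema7a. The cause of these shifts was not tested. The planned edgeR test on whole reads was not run, because whole reads could not be recovered for 11 of 18 columns. Values under 3 reads, most of them in pulldowns, limit what can be said of Slit3, Epha8 and other genes of low level.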
